A study of Rattus norvegicus with 16 samples.

Results

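The endothelial identity genes are 10 genes that mark the cells lining blood vessels: Pecam1, Cdh5, Tie1, Vwf, Emcn, Esam, Egfl7, Plvap, Erg and Sox18. They were chosen by name, as the rows of the count table whose symbol equals a listed gene, and all 10 were found among 14476 genes. Every one of them passed the filter on low counts, after which 12857 genes were tested. Endothelial cells form the inner wall of every vessel, seal it with junctions, and keep their identity through transcription factors of the ETS and SOX families. In healing bone, new vessels carry oxygen and cells into the defect, and the membrane that forms around a cement spacer is known as a vascularised tissue. The junction, surface and transcription factor genes described here are standard markers of that cell type, although some are shared with blood lineages: Pecam1 with platelets and leukocytes, and Vwf with megakaryocytes.

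RNA-seq was run on 16 tissues from 4 Sprague-Dawley rats. Each rat had an osteotomy, a surgical cut through the bone, in both limbs, held by a plate. A spacer of PMMA bone cement was placed in the defect of one limb, as in the Masquelet induced membrane technique, and the opposite defect was left empty as control. After 4 weeks each rat gave 4 tissues, which form the groups with 4 libraries each. The induced membrane (IM) is the tissue around the spacer, and the pre-fibrous non-union tissue (PFNU) is what filled the empty defect. PMMA bone is the bone next to the spacer, and BNED is the bone next to the empty defect. No group is an intact limb, so all tissues come from operated and plated bone, and age and sex are not given in the sources used here.

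Levels are CPM, the counts of a gene relative to its library size scaled with TMM factors, and values in a run of 4 are those of rats 1, 2, 3 and 4 in that order. Differences are log2 fold changes from edgeR's quasi-likelihood test over all 16 libraries, and a gene was called at a Benjamini-Hochberg adjusted p under 0.05. Library totals ran between 40472228 and 76815879 counts, and the 10 genes had between 716 and 30566 counts in each library, so that no level rests on few reads. Gene lengths were not used, and levels are therefore compared between tissues and not between genes. In such bulk tissue, fewer endothelial cells and less RNA per endothelial cell cannot be told apart.

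Of the 16 libraries, 2 stood apart from their groups for these genes. The PMMA bone library of rat 1 was the lowest of its group for all 10 genes, and for 7 of them its level was inside the BNED range. That library held 8.35% of its counts in 11 red cell genes, against 0.533% to 1.44% in the other PMMA bone libraries. The membrane of rat 2 was the highest of its group for 5 genes (Pecam1, Cdh5, Emcn, Erg and Sox18) and the lowest for 4 (Tie1, Vwf, Esam and Plvap). Where leaving out either library ended a call or moved a count of the 10 genes, the result without it is given.

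Pecam1 and Cdh5 encode adhesion proteins of the endothelial junction, and Cdh5 (VE-cadherin) is the cadherin that holds neighbouring endothelial cells together. Pecam1 stood at 264, 511, 255 and 365 CPM in IM and at 368, 315, 313 and 266 CPM in PFNU. In bone, its level was 123, 232, 184 and 205 CPM in PMMA bone and 108, 124, 103 and 101 CPM in BNED. All 8 defect libraries lay above all 8 bone libraries, and within the bone only the PMMA bone of rat 1 fell inside the BNED range. Cdh5 had the same order of groups, with 162, 294, 202 and 257 CPM in IM and 212, 229, 195 and 170.3 CPM in PFNU. Its bone levels were 65.2, 113, 105 and 108 CPM in PMMA bone, against 50.7, 83.0, 63.7 and 54.9 CPM in BNED. Here too no bone library reached any defect library. Esam, an adhesion molecule of endothelial tight junctions and of platelets, was at 102, 77.6, 86.9 and 137 CPM in IM and 127, 107, 104 and 94.7 CPM in PFNU. It was at 49.4, 99.1, 88.7 and 87.7 CPM in PMMA bone and 44.9, 52.0, 43.2 and 38.0 CPM in BNED, so that unlike Pecam1 and Cdh5 its PMMA bone levels in rats 2 to 4 overlapped those of the defect tissues.

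Tie1 encodes an orphan receptor tyrosine kinase that works together with the angiopoietin receptor Tek. Its level was 232, 131, 161 and 199.5 CPM in IM and 186, 175, 176 and 157 CPM in PFNU, with rat 2 the lowest membrane. PMMA bone had 102, 168, 171 and 176 CPM of Tie1, against 91.9, 106, 99.1 and 94.7 CPM in BNED. Rats 2 to 4 were thus near the defect tissues and rat 1 was near BNED. Vwf encodes von Willebrand factor, which endothelial cells store and release to bind platelets. Vwf stood at 167, 59.0, 138 and 187 CPM in IM and at 166, 98.9, 152 and 119 CPM in PFNU. In PMMA bone it stood at 35.4, 129, 107 and 120.4 CPM, and in BNED at 29.3, 53.4, 27.5 and 28.8 CPM. Its spread within groups was wide, since the membrane of rat 2 was far below the other membranes and the PMMA bone of rat 1 was far below the other PMMA bones.

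Emcn encodes endomucin, a sialomucin of venous and capillary endothelium that in mouse bone marks a vessel type found near forming bone. Emcn was at 62.0, 139.9, 59.9 and 89.8 CPM in IM and 89.0, 89.3, 88.6 and 75.4 CPM in PFNU. It was at 57.2, 62.0, 62.6 and 70.6 CPM in PMMA bone and 47.2, 36.7, 46.8 and 55.9 CPM in BNED, and every PMMA bone library lay above every BNED library by a narrow margin. Plvap forms the diaphragms of fenestrated endothelium. Plvap had 185, 139, 203 and 216 CPM in IM and 196, 124, 163 and 118 CPM in PFNU. Its bone levels were 82.0, 217, 225 and 186 CPM in PMMA bone and 62.4, 70.6, 70.3 and 66.9 CPM in BNED. PMMA bone was as high as the defect tissues for Plvap in rats 2 to 4, and even its lowest library was above all of BNED. Egfl7, a factor that endothelial cells secrete into the matrix around vessels, was at 89.8, 112, 71.9 and 119 CPM in IM and 114, 111, 100.4 and 87.1 CPM in PFNU. It was at 45.5, 120.0, 102 and 105 CPM in PMMA bone and 40.3, 61.5, 50.4 and 56.1 CPM in BNED, again with rat 1 of PMMA bone among the BNED values.

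Erg is an ETS family transcription factor that maintains the endothelial programme. Erg levels were 41.6, 56.6, 43.5 and 37.1 CPM in IM and 39.2, 32.8, 33.4 and 29.5 CPM in PFNU, against 24.7, 34.6, 29.6 and 30.4 CPM in PMMA bone and 12.8, 19.8, 19.1 and 15.7 CPM in BNED. The PMMA bone and BNED ranges did not overlap. Sox18 is a SOX family factor of developing blood and lymphatic vessels. Its levels were 43.5, 80.2, 40.2 and 50.9 CPM in IM and 46.6, 54.4, 38.4 and 34.1 CPM in PFNU, and 24.3, 49.3, 38.2 and 41.5 CPM in PMMA bone and 24.6, 25.0, 22.6 and 21.8 CPM in BNED. In rat 1 the PMMA bone level of Sox18 was no higher than that of BNED.

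The group means had nearly the same order for all 10 genes. BNED was lowest for 10 of 10, PMMA bone was next above it for 9 and above PFNU for Plvap, and the mean was highest in IM for 8 and in PFNU for Esam and Egfl7. IM and PFNU, the neighbours at the top of this order, overlapped for every gene. PFNU and PMMA bone did not overlap for 3 genes (Pecam1, Cdh5 and Emcn) and overlapped for the other 7.

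**Figure D1:**
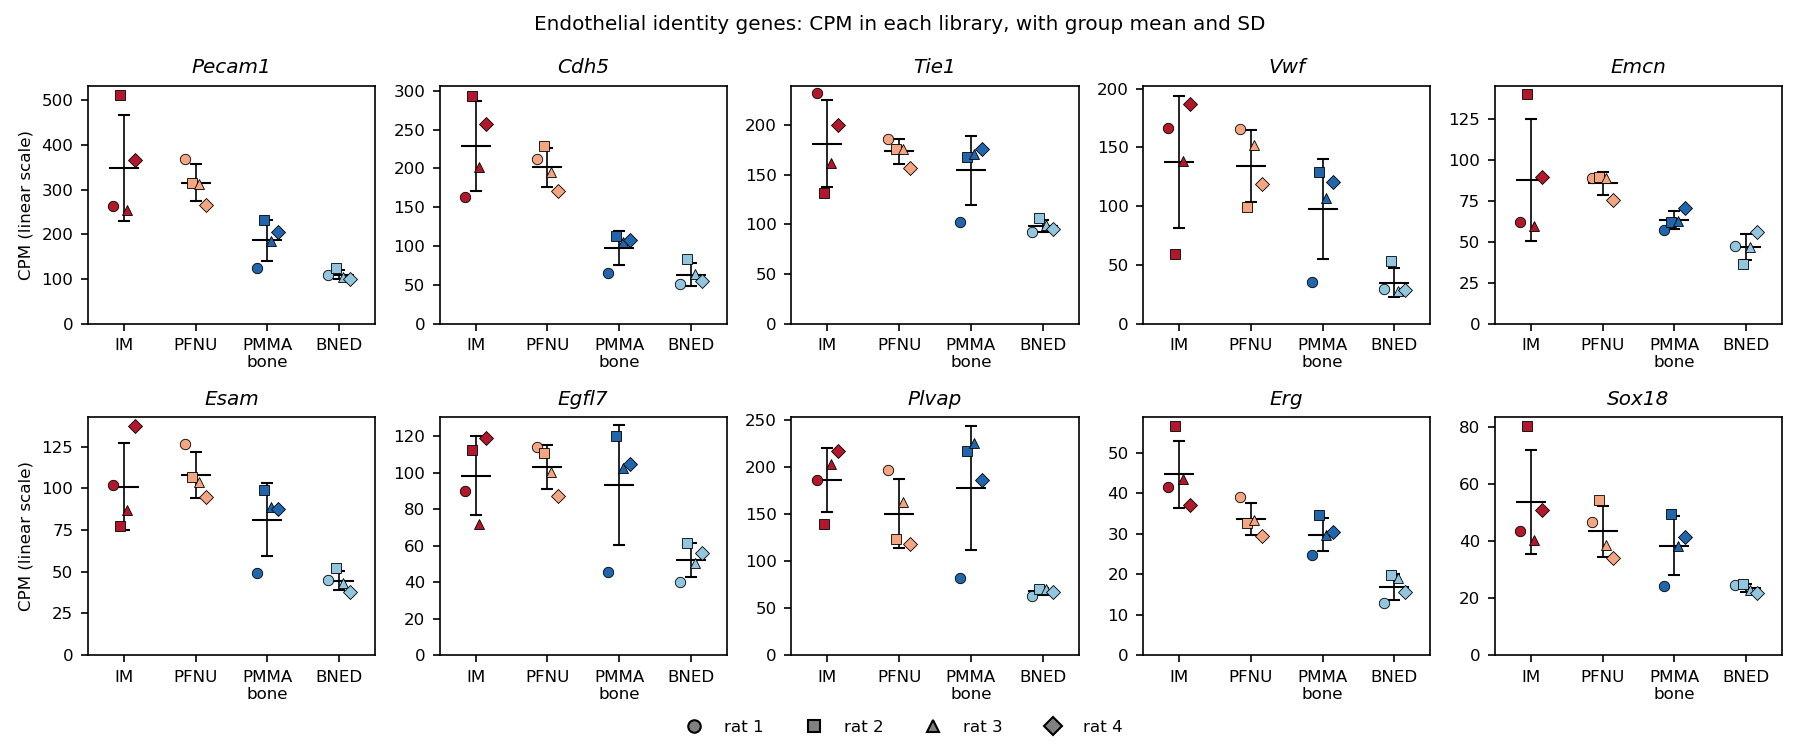
CPM of each endothelial identity gene (vertical axes, linear) in IM, PFNU, PMMA bone and BNED, with 1 point per rat and the mean ± SD of 4 libraries. The 4 BNED libraries sit lowest for each gene except where the PMMA bone library of rat 1 joins them.

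Erg and its relatives bind DNA at sites with a GGAA core, so the stretches before the start of the members' own genes were searched for ETS and SOX letters. RefSeq promoter windows (build GRCr8, from 250 bases before to 50 after the start) were matched for 5 genes, namely Tie1, Emcn, Egfl7, Plvap and Erg. Pecam1, Cdh5, Vwf, Esam and Sox18 are named only. The ETS letters CAGGAAG, on either strand, were in 4 of the 5 windows and in 12.5% of all 27457 windows. CCGGAAG was in 0 of the 5 and in 9.21% of all windows. The SOX letters AACAAT were in the windows of Emcn and Erg and in 11.6% of all, and ACAAAG was in that of Tie1 and in 18.4% of all. Such a match describes the letters and does not show a bound site. The 250 bases before the start are printed for the 4 genes with CAGGAAG, because they hold the letters of Erg's own family, with every motif match in capitals (CTTCCTG is CAGGAAG, and ATTGTT is AACAAT, on the other strand). The windows are chr2:228564289-228564538 on the plus strand for Emcn, chr3:29805381-29805630 on the plus strand for Egfl7, chr16:18231280-18231529 on the minus strand for Plvap and chr11:48251567-48251816 on the minus strand for Erg.
Emcn: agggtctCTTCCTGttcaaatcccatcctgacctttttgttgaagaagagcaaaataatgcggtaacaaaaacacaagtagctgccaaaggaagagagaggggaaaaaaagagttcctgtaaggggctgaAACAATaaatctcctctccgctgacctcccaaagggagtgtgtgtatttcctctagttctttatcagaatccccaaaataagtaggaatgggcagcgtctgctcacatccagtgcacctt
Egfl7: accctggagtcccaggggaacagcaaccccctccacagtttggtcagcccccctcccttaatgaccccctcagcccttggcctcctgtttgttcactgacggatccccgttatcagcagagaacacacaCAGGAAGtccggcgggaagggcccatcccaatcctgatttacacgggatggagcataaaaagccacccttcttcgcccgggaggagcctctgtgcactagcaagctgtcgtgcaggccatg
Plvap: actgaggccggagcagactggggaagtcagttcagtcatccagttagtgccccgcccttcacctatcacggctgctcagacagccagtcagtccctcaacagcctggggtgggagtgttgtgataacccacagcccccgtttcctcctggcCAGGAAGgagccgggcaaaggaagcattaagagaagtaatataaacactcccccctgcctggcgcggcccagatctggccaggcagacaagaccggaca
Erg: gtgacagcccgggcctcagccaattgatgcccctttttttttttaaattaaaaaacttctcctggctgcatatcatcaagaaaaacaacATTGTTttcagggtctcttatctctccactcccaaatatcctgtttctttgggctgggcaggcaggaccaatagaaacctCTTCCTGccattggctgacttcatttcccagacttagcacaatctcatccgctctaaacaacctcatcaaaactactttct
The ETS match began 243 bases before the start in Emcn (position -243), and at -121 in Egfl7, -99 in Plvap and -81 in Erg.

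The first comparison set IM against PFNU and asks how the tissue formed around a spacer differs from that of an empty defect. No endothelial identity gene was called by edgeR, DESeq2 or limma-voom. Of all genes tested, edgeR called 0.863%, DESeq2 called 572 genes and limma-voom called 0. The limma-voom fit thus could not set the 10 genes apart from the rest. Log2 fold changes ran from -0.10 for Esam to 0.41 for Erg, with a median of 0.10 beside 0.01 over all genes. Erg was the sole member with an unadjusted p under 0.05 (0.0341). It was 1.33-fold higher in IM (SE 0.17 on the log2 scale, edgeR adjusted p = 0.281) and was also the sole member higher in IM in 4 of 4 rats, a pattern that 11.4% of all genes had. Plvap and Sox18 were both 0.31 higher on the log2 scale and not called. None of the 10 genes had IM and PFNU ranges that did not overlap, against 7.26% of all genes. Adjusted p-values ran from 0.281 to 0.983, and with 4 libraries each a difference of this size was not detectable beyond the spread.

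The second comparison set PMMA bone against BNED, the same question in the neighbouring bone. Of the 10 endothelial identity genes, 4 were called higher in PMMA bone and none lower, and 6 did not pass the test, where 4.91% of all genes were called in either direction and 3.51% were called higher. The fitted differences of all 10 were positive, with a median of 0.80 beside -0.01 over all genes. Vwf averaged 97.9 ± 42.6 CPM in PMMA bone and 34.7 ± 12.5 CPM in BNED (SD, n = 4 each), a log2 fold change of 1.49 (SE 0.40, edgeR adjusted p = 0.0435). Plvap averaged 178 ± 65.8 CPM in PMMA bone and 67.5 ± 3.84 CPM in BNED (SD, n = 4 each), a log2 fold change of 1.39 (SE 0.27, edgeR adjusted p = 0.0210). Esam was 0.87 higher on the log2 scale (SE 0.22, edgeR adjusted p = 0.0373), and Erg was 0.82 higher (SE 0.18, edgeR adjusted p = 0.0250). The storage protein, the diaphragm protein, the tight junction molecule and the ETS factor were thus the called genes.

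The other 6 genes were not called in bone. Their log2 fold changes were 0.84 for Egfl7, 0.77 for Pecam1, 0.71 for Sox18, 0.66 for Tie1, 0.63 for Cdh5 and 0.44 for Emcn. Of these, Tie1 came nearest the threshold (edgeR adjusted p = 0.0641) and Emcn was farthest from it (0.253). Levels were higher in PMMA bone in 4 of 4 rats for 9 genes, a pattern that 24.4% of all genes had, and in 3 of 4 rats for Sox18. PMMA bone and BNED did not overlap, with PMMA bone above, for 3 genes (Emcn, Plvap and Erg), as for 12.0% of all genes. Rat 1 showed the smallest differences for most genes, 0.27 for Vwf and 0.39 for Plvap on the log2 scale, whereas its Erg difference was 0.94.

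The number of called genes in bone rested on single libraries. Without the PMMA bone library of rat 1, 9 genes were called higher, all but Emcn, and 2578 of all genes were called in place of 631. Without the PMMA bone library of rat 2, 3 or 4, or the BNED library of rat 1 or 3, edgeR called 0 of the 10 and 0 of all genes, while 9 of the 10 still had an unadjusted p under 0.05 in each of those fits. Without the BNED library of rat 2 the count was 3, and without that of rat 4 it was 2. The size of the difference moved less: over these 8 fits Plvap stayed between 1.26 and 1.63, Vwf between 1.33 and 1.78, Esam between 0.76 and 1.04 and Erg between 0.71 and 0.91. With the rat as a block, Plvap (edgeR adjusted p = 0.0346) and Erg (0.0303) were called, and Vwf (0.0710) and Esam (0.0607) were not, with 454 of all genes called.

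Whether the spacer difference in the defect differed from that in bone was tested as an interaction. Its value was negative for all 10 genes, from -0.40 for Emcn and Sox18 to -1.45 for Vwf, with a median of -0.61 beside 0.01 over all genes. Of the 10, 5 had an unadjusted p under 0.05: Esam (-0.96), Plvap (-1.08), Vwf (-1.45), Egfl7 (-0.91) and Tie1 (-0.59). After adjustment edgeR called 0 of them and 0% of all genes, of which 1149 had an unadjusted p under 0.05. DESeq2 called 136 of all genes and none of the 10, and limma-voom called 220 of all genes and 3 of the 10, all 10 of which had an unadjusted p under 0.05 there. Without the PMMA bone library of rat 1, edgeR called Esam (-1.14), Egfl7 (-1.14) and Plvap (-1.32), with 199 of all genes. With all 16 libraries, a difference between the spacer effects was thus called by limma-voom for Pecam1, Esam and Egfl7 (adjusted p = 0.0429, 0.0292 and 0.0379) and for none of the 10 by edgeR or DESeq2.

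**Figure D2:**
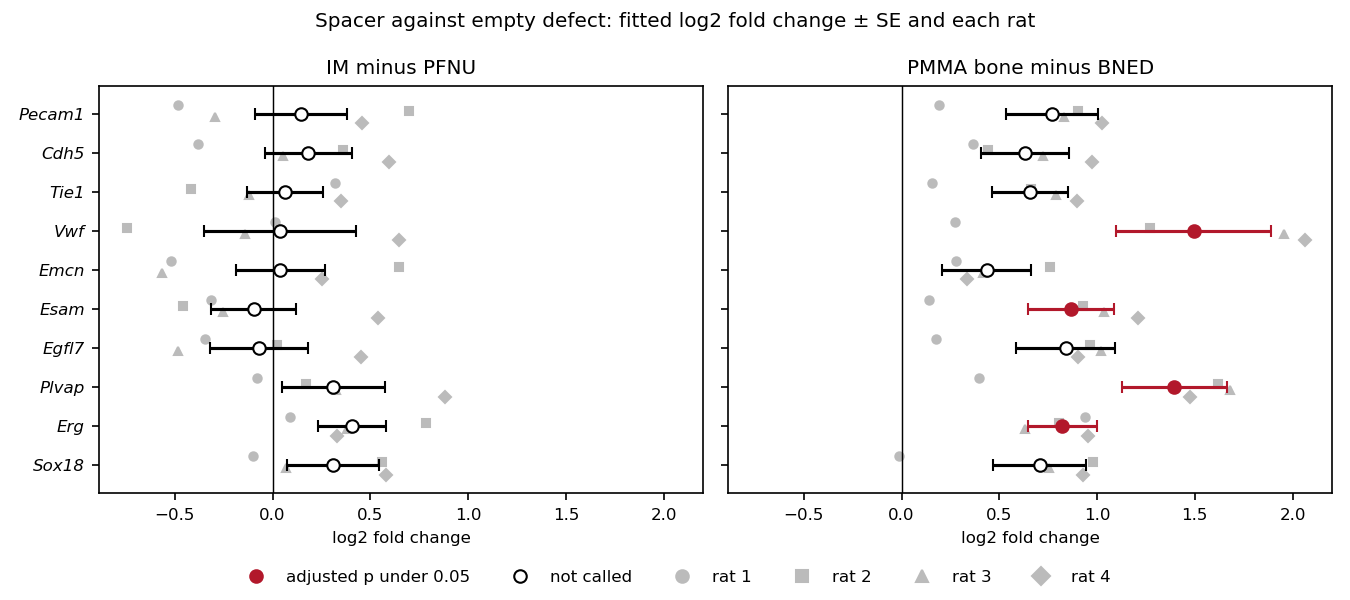
Log2 fold change of each gene (horizontal axis) for IM over PFNU and for PMMA bone over BNED; large symbols are the edgeR estimates with ± 1 SE and small points are the 4 rats. All estimates for bone are above 0, from 0.44 for Emcn to 1.49 for Vwf, while those for the defect lie between -0.10 and 0.41.

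Within the spacer limb, IM was set against PMMA bone. The call rate over all genes was high, 22.2% in either direction and 11.3% higher in IM, and 3 of the 10 genes were called, all higher in IM. Cdh5 averaged 229 ± 58.1 CPM in IM and 97.8 ± 21.9 CPM in PMMA bone (SD, n = 4 each), a log2 fold change of 1.23 (SE 0.23, edgeR adjusted p = 0.00277). Pecam1 averaged 349 ± 120 CPM in IM and 186 ± 46.1 CPM in PMMA bone (SD, n = 4 each), a log2 fold change of 0.91 (SE 0.24, edgeR adjusted p = 0.0150). Erg was 0.58 higher (SE 0.17, edgeR adjusted p = 0.0275). For all 3 the ranges of IM and PMMA bone did not overlap, as for 7.75% of all genes with IM above, and IM was higher in 4 of 4 rats, as for 14.9% of all genes. Sox18 was higher in 4 of 4 rats too, with a log2 fold change of 0.49 that was not called. At the other end, Egfl7 (0.08, edgeR adjusted p = 0.850) and Plvap (0.07, 0.875) had nearly equal means in IM and PMMA bone. The median over the 10 was 0.48 beside 0.03 over all genes.

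Pecam1 and Cdh5 were called in each of the 8 fits that left out a library of either group, and Erg in 4 of them. Erg lost its call without the membrane of rat 2 and without the PMMA bone library of rat 1, 3 or 4. The count was 2 without the membrane of rat 2 (2915 of all genes called) and 2 without the PMMA bone library of rat 1 (1842 of all genes called). Over the 8 fits the log2 fold change of Erg stayed between 0.45 and 0.69. The count was 1 in place of 3 with limma-voom (2779 of all genes called) and with only these groups in the fit (908 of all genes called). With the red cell level of each library as a covariate, none of the 10 was called higher: the edgeR adjusted p was 0.391 for Pecam1 and 0.135 for Cdh5, the median log2 fold change was -0.10, and Plvap was called lower (-1.12, edgeR adjusted p = 0.0324), with 1491 of all genes called.

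Within the empty limb, PFNU was set against BNED, and all 10 genes were called higher in PFNU, where 30.2% of all genes were called and 15.0% were called higher. For all 10 the ranges did not overlap, as for 18.9% of all genes with PFNU above, and PFNU was higher in 4 of 4 rats, as for 29.5% of all genes. Vwf averaged 134 ± 30.4 CPM in PFNU and 34.7 ± 12.5 CPM in BNED (SD, n = 4 each), a log2 fold change of 1.95 (SE 0.40, edgeR adjusted p = 0.00258). Cdh5 was 1.68 higher on the log2 scale (SE 0.23, edgeR adjusted p = 2.31e-04), Pecam1 1.53 (SE 0.24, 4.63e-04) and Esam 1.28 (SE 0.22, 8.25e-04). The smallest difference was that of Tie1, 0.82 (SE 0.20, edgeR adjusted p = 0.00625). Plvap was 1.15 higher, Erg 1.00, Egfl7 0.99, and Sox18 and Emcn 0.88 each. The median was 1.08 beside 0.04 over all genes. All 10 were called in each of the 8 fits that left out a library of either group. With the red cell covariate edgeR called 0 of the 10 and 0 of all genes, 3 of the 10 had an unadjusted p under 0.05, and Plvap stood at -0.20. This comparison shares its BNED libraries with that of PMMA bone, and the comparison within the spacer limb shares its PMMA bone libraries, so the sets of values stand side by side and are not independent.

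**Figure D3:**
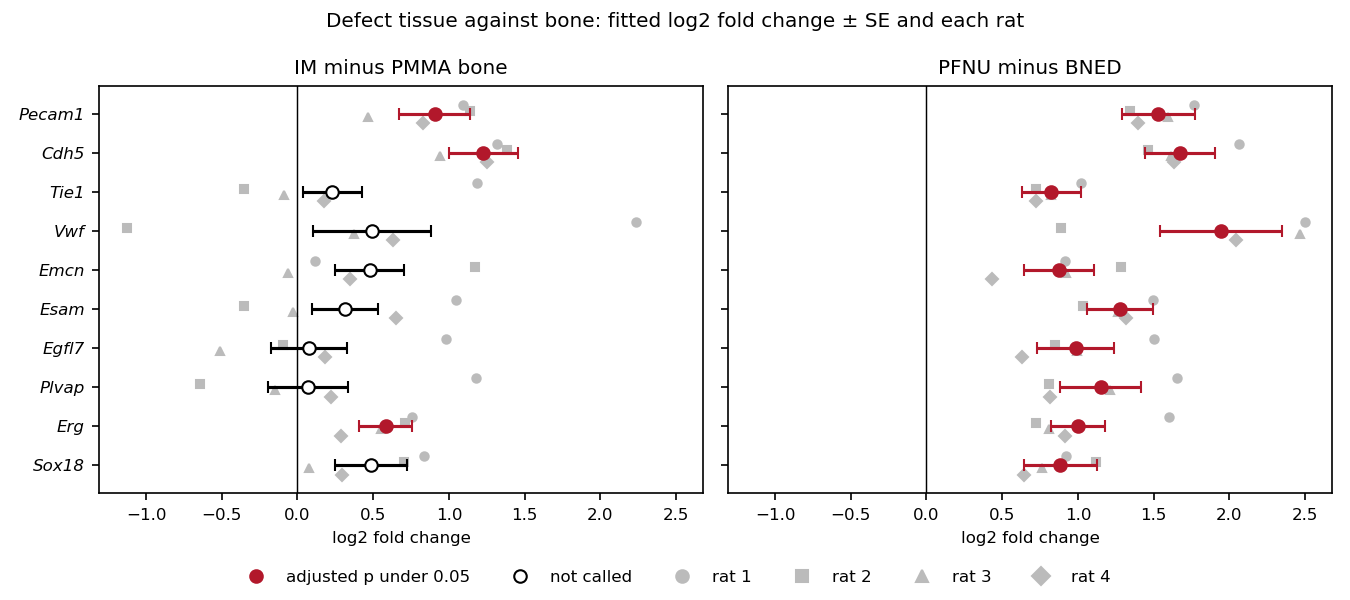
Log2 fold change of each gene (horizontal axis) for IM over PMMA bone and for PFNU over BNED; large symbols are the edgeR estimates with ± 1 SE and small points are the 4 rats. All 10 estimates for PFNU over BNED are at 0.82 or more, while those for IM over PMMA bone run from 0.07 for Plvap to 1.23 for Cdh5.

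The genes did not all move by the same amount. Plvap counts per Cdh5 count, a ratio within a library and so free of scaling, were 1.14, 0.473, 1.01 and 0.842 in IM and 0.927, 0.539, 0.835 and 0.691 in PFNU. The ratio was 1.26, 1.92, 2.14 and 1.72 in PMMA bone and 1.23, 0.851, 1.10 and 1.22 in BNED. All 4 PMMA bone libraries were above all 12 others, with rat 1 only just above the highest BNED library. Vwf counts per Emcn count were 2.69, 0.422, 2.31 and 2.08 in IM and 1.86, 1.11, 1.72 and 1.58 in PFNU. They were 0.620, 2.08, 1.70 and 1.71 in PMMA bone and 0.621, 1.46, 0.587 and 0.515 in BNED. The membrane of rat 2 had the lowest Vwf to Emcn ratio of all libraries, and in rat 1 the ratios of PMMA bone and BNED were nearly equal. Both ratios were chosen after the values were seen and carry no test.

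**Figure D4:**
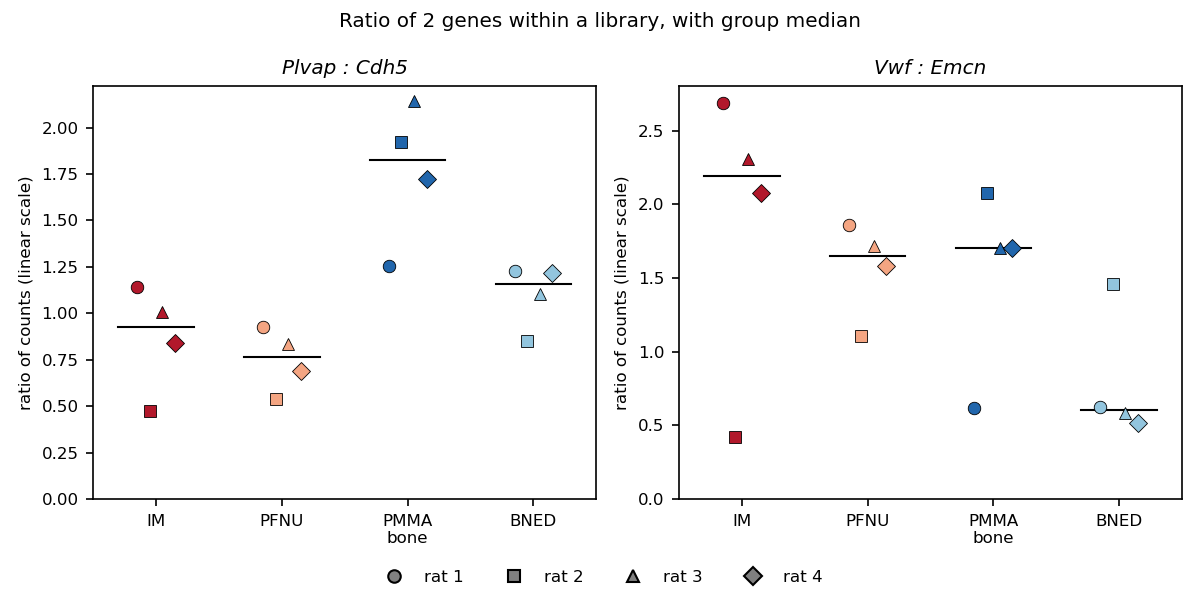
Ratio of Plvap to Cdh5 counts and of Vwf to Emcn counts (vertical axes) in each library of IM, PFNU, PMMA bone and BNED, with the group median as a line. The Plvap to Cdh5 ratio is highest in PMMA bone, between 1.26 and 2.14.

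Other genes of blood vessels were described from lists. Over all genes, 3.51% were called higher in PMMA bone than in BNED. Of 21 other endothelial genes tested, 4 were called higher there and none lower, with a median log2 fold change of 0.64. They were Flt1, a VEGF receptor (30.5 to 57.2 CPM in PMMA bone and 19.0 to 24.7 CPM in BNED), Rasip1, a regulator of vessel lumen formation, Tm4sf1, and Eng, a TGF-beta co-receptor. Their log2 fold changes were 0.99 for Flt1, 0.81 for Rasip1, 1.24 for Tm4sf1 and 1.10 for Eng, with edgeR adjusted p-values from 0.0195 (Flt1) to 0.0378 (Eng). With the rat as a block, Rasip1, Tm4sf1 and Eng lost their calls and Flt1 kept its call. Without the PMMA bone library of rat 1, 11 of the 21 were called higher and 1 lower, with 2578 of all genes called. As for the 10 identity genes, edgeR called 0 of this list without the PMMA bone library of rat 2, 3 or 4 or the BNED library of rat 1 or 3, where it called 0 of all genes. Between IM and PFNU edgeR called 0 of the 21, of which 4 had an unadjusted p under 0.05.

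Between PFNU and BNED, 16 of the 21 were called higher and 1 lower, with a median of 1.18. Over all genes, 30.2% were called there and 15.0% were called higher. Flt1 averaged 59.3 ± 3.93 CPM in PFNU and 22.0 ± 2.43 CPM in BNED (SD, n = 4 each), a log2 fold change of 1.43 (SE 0.19, edgeR adjusted p = 2.05e-04). Eltd1, an adhesion receptor of sprouting endothelium, averaged 221 ± 41.8 CPM in PFNU and 50.6 ± 11.0 CPM in BNED (SD, n = 4 each), 2.12 higher on the log2 scale (SE 0.29, edgeR adjusted p = 2.16e-04). Between IM and PMMA bone, 8 were called higher and 1 lower, with a median of 0.45. Over all genes, 22.2% were called there and 11.3% were called higher. Gpr116 was 1.29 higher on the log2 scale (SE 0.25, edgeR adjusted p = 0.00372), and Cd93, an endothelial and myeloid surface lectin, was 1.00 higher (SE 0.22, edgeR adjusted p = 0.00688). The gene called lower in both comparisons was Tal1, also a factor of blood progenitors, at 4.25 to 12.2 CPM in IM and 32.7 to 299 CPM in PMMA bone. The highest PMMA bone value of Tal1 was that of rat 1, and its log2 fold change was -3.47 with that library and -2.11 without it. With the red cell covariate, Gpr116 (edgeR adjusted p = 0.0726), Cd93 and Tal1 (0.819) lost their calls for IM against PMMA bone. That fit called 1491 of all genes. Cd93 lost its call with limma-voom too.

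Over all genes, 15.0% were called higher in PFNU against BNED, and 3.51% in PMMA bone against BNED. Arterial and tip cell genes, 10 in number, had 7 called higher and 1 lower (Esm1, -1.25) in PFNU against BNED, and 1 called higher in PMMA bone against BNED. That gene was Gja4, a connexin of arterial endothelium, at 23.5 ± 10.5 CPM in PMMA bone and 9.27 ± 2.37 CPM in BNED (SD, n = 4 each). Gja5, another arterial connexin, was 2.14 higher on the log2 scale in PFNU than in BNED (SE 0.43, edgeR adjusted p = 0.00219). Of 6 venous and activated genes, 4 were called higher and 1 lower (Vcam1, which leukocyte-binding endothelium and marrow stroma carry, -1.65) in PFNU against BNED. Nr2f2, the factor of venous identity, was among those higher, at 1.68 (SE 0.27, edgeR adjusted p = 5.34e-04). In PMMA bone the venous list had 1 gene called higher against BNED: Sele, the selectin of activated endothelium, at 20.3 ± 6.07 CPM in PMMA bone and 6.16 ± 2.59 CPM in BNED (SD, n = 4 each), a call that was lost with the rat as a block. Neither list had a gene called between IM and PFNU by edgeR, with 2 of the 10 arterial and 1 of the 6 venous genes at an unadjusted p under 0.05.

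Pericytes and smooth muscle cells wrap the endothelial tube, and their genes are described beside the endothelial ones. Of 11 such genes, 7 were called higher and none lower in PMMA bone against BNED, with a median of 1.21. Over all genes, 3.51% were called higher there. Mcam averaged 175 ± 52.2 CPM in PMMA bone and 79.5 ± 8.51 CPM in BNED (SD, n = 4 each), a log2 fold change of 1.14 (SE 0.23, edgeR adjusted p = 0.0224). Rgs5, a pericyte gene, was 1.21 higher (SE 0.25, edgeR adjusted p = 0.0230). Without the PMMA bone library of rat 1 the count was 10, with 2578 of all genes called. In the 5 fits in which edgeR called 0 of all genes the count was 0. In PFNU against BNED, 9 of the 11 were called higher, where 15.0% of all genes were. Among them Acta2, the smooth muscle actin that myofibroblasts also express, was at 420 ± 103 CPM in PFNU and 58.9 ± 21.1 CPM in BNED (SD, n = 4 each). IM against PMMA bone had 5 called higher, where 11.3% of all genes were. Between IM and PFNU edgeR called 0 of the 11, with 1 at an unadjusted p under 0.05.

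Levels of blood cell and other tissue markers differed between the groups. The 11 red cell genes tested took 0.0427% to 0.166% of counts in IM, 0.105% to 0.492% in PFNU, 0.533% to 8.35% in PMMA bone and 4.44% to 7.75% in BNED, with the highest PMMA bone value in rat 1. All 11 were called lower in IM against PMMA bone, where 22.2% of all genes were called, and in PFNU against BNED, where 30.2% were. In the spacer comparisons edgeR called 0 of them. There the median log2 fold change was -1.69 for IM against PFNU, with 5 of the 11 at an unadjusted p under 0.05, and -1.12 for PMMA bone against BNED, with 0 of the 11. The bone groups nevertheless differed in rats 2, 3 and 4. Red cell genes took 0.533%, 0.590% and 1.44% of counts in their PMMA bone and 5.33%, 4.44% and 7.75% in their BNED. In rat 1 the shares were 8.35% in PMMA bone and 7.60% in BNED. The 12 leukocyte genes summed to 626 to 2322 CPM in IM, 836 to 1846 CPM in PFNU, 1554 to 2215 CPM in PMMA bone and 2930 to 3410 CPM in BNED. For PMMA bone against BNED edgeR called 4 of the 12 lower and 0 higher, where 4.91% of all genes were called in either direction. With the red cell level of each library as a covariate, edgeR called 0 of the 10 endothelial genes, and 0 of all genes, for PMMA bone against BNED, and likewise 0 of the 10 and 0 of all genes for PFNU against BNED. The fitted differences for PMMA bone against BNED stayed positive for all 10, from 0.31 for Tie1 to 0.71 for Plvap, with 3 of the 10 at an unadjusted p under 0.05. Because the red cell level differs between bone and defect tissue in every rat, it cannot be told apart from the tissue there.

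Platelets and megakaryocytes carry Vwf, Pecam1 and Esam. Their 7 genes summed to 36.8 to 99.8 CPM in IM, 38.2 to 78.8 CPM in PFNU, 98.8 to 220 CPM in PMMA bone and 137 to 157 CPM in BNED. By gene, the means in IM, PFNU, PMMA bone and BNED were 42.0, 27.6, 28.4 and 53.5 CPM for Pf4 and 25.9, 22.1, 117 and 58.0 CPM for Itgb3, an integrin that is not confined to platelets. The other 5 (Ppbp, Gp9, Gp1ba, Gp5 and Treml1) were lower: in IM, Gp1ba had 0 counts in 3 libraries, Ppbp and Gp9 in 2 each and Gp5 in 1. For PMMA bone against BNED, where 4.91% of all genes were called in either direction, 1 of the 7 was called lower and none higher. The median log2 fold change was -2.18, with 6 of the 7 at an unadjusted p under 0.05. The gene called was Gp5 (-2.79, SE 0.66, edgeR adjusted p = 0.0338), while Itgb3 stood at 1.02 and was not called. The Gp5 call was lost in 7 of the 8 fits that left out a library, among them the 5 in which edgeR called 0 of all genes. The part of these cells in the Vwf, Pecam1 and Esam levels was not tested. Skeletal muscle genes took 2.19% to 20.3% of counts in IM, 6.10% to 15.0% in PFNU, 0.162% to 1.04% in PMMA bone and 0.366% to 4.07% in BNED. The 10 osteoblast and osteocyte genes summed to 7779 to 50600.3 CPM in IM, 9572 to 25407 CPM in PFNU, 58406 to 88797 CPM in PMMA bone and 19817 to 50571 CPM in BNED. The 10 fibroblast genes summed to 16989 to 41035 CPM in IM, 10811 to 21371 CPM in PFNU, 11613 to 22122 CPM in PMMA bone and 5569 to 7629 CPM in BNED. For PMMA bone against BNED edgeR called 3 of the 10 fibroblast genes higher and 0 lower, where 3.51% of all genes were called higher. The part of the muscle, bone and fibroblast genes in the results was not tested. Library sizes computed without red cell and muscle genes changed no call of the 10 genes.

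**Figure D5:**
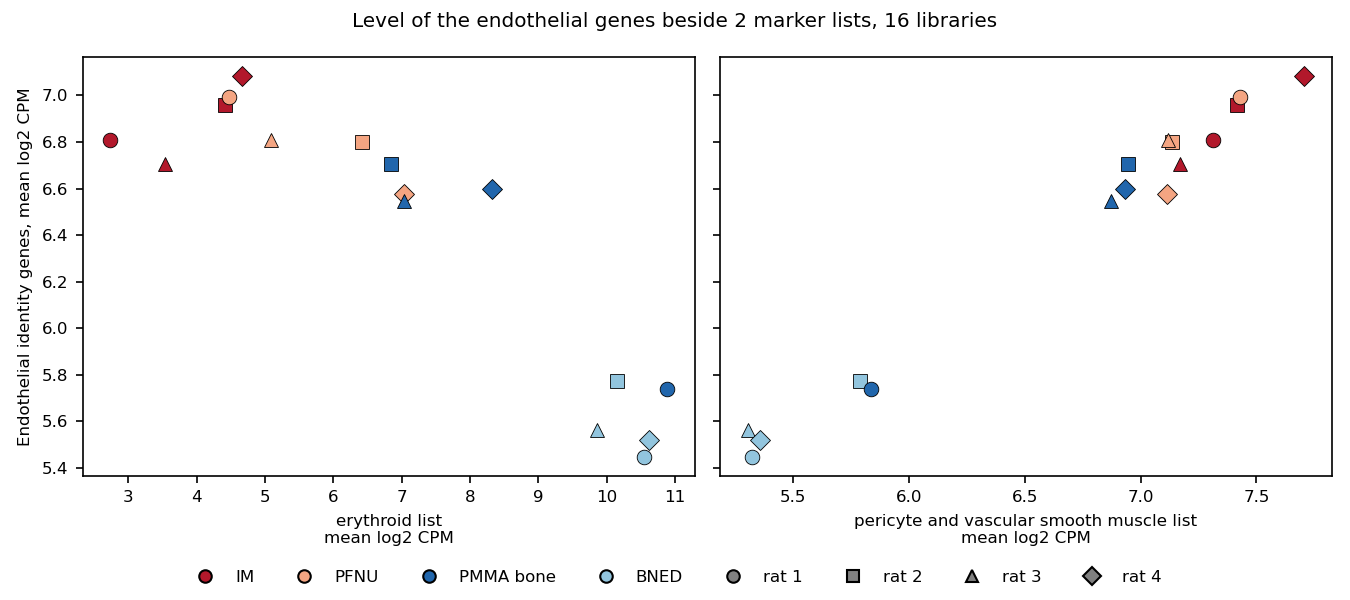
Mean log2 CPM of the 10 endothelial identity genes (vertical axes) against that of the red cell genes and of the pericyte and smooth muscle genes (horizontal axes) in 16 libraries, coloured by group. The PMMA bone library of rat 1 lies close to the BNED libraries and apart from the other PMMA bone libraries, at 10.9 for red cell genes (BNED 9.86 to 10.6) and 5.84 for pericyte genes (BNED 5.30 to 5.79).

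The 10 genes varied together across the 16 libraries to different degrees. As a description with no test, since the libraries fall into groups and share animals, Pearson r of log2 CPM between pairs of genes ran from 0.487 for Vwf and Emcn to 0.973 for Pecam1 and Cdh5, with a median of 0.816 over 45 pairs. Tie1 and Vwf (0.962) and Esam and Vwf (0.958) were also close. Once each group's mean was removed, the median over the pairs was 0.539 and the range was -0.407 to 0.924. Among genes outside the 10, those with the profile most like their mean were F11r (r 0.982), Tnfaip1 (0.981), Acta2 (0.976), Kcnmb1, Pmfbp1, Bace2, Lrrc4c and Notch3 (0.966), over 16 libraries. With the mean log2 CPM of the red cell genes, r was negative for all 10, from -0.645 for Emcn to -0.889 for Cdh5. The part of the red cell level in the shared profile was not tested.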

How the data were processed

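Poly-A RNA of 16 rat tissues was sequenced as stranded TruSeq libraries from both ends, per the labels' protocols. The deposited values are raw counts per gene symbol, made by the authors with no normalisation. Tools listed without a role in the submitters' processing notes are TopHat2 2.0.13 and Bowtie2 2.2.1 (aligners), FastQC 0.11.3 and DESeq2, with the genome build rn5; the counting program, annotation and strand setting are not given in the sources used here, so reads of overlapping antisense genes may be included. Genome positions in rn5 were not used here.

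Samples were assigned to group and rat from their labels. Counts were tested with edgeR 4.0.16 (R 4.3.3; TMM, filterByExpr, quasi-likelihood F-test) in a single group-means model of 16 libraries, with Benjamini-Hochberg adjustment over 12857 genes and a threshold of 0.05. The SE is the size of the log2 fold change divided by the square root of F. Rat differences and list levels use log2 CPM with a prior count of 2, and CPM means are given ± SD. Each group has 1 library per rat, and the spread was estimated over all 16 libraries together. The p-values thus rest on spread between animals pooled over the 4 tissues, and not on that of the compared groups alone. The main model leaves out that the tissues come from the same 4 rats, which only the fit with a block for rat takes in. Same-numbered samples are tissues of the same rat, per the labels. Over rats, the correlation of their deviations ran from -0.07 to 0.50 for IM with PFNU and from -0.07 to 0.49 for PMMA bone with BNED. It ran from -0.15 to 0.27 for IM with PMMA bone and from -0.28 to 0.36 for PFNU with BNED. Of 24 replicate pairs none agreed within counting noise (chi-square per degree of freedom at least 80.6).

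The alternatives were DESeq2 1.42.0, limma 3.58.1 voom with quality weights, RLE scaling, no filter, a block for rat, the compared groups alone, other library sizes, a red cell covariate and leaving out each library. The 10 genes, the 11 marker lists (119 of 134 entries tested) and the rules were chosen with earlier results of these data known. All 10 genes were tested in every comparison. Candidates for naming were the called list genes of smallest adjusted p (at most 3 per list, 5 for other endothelial genes). The text names only some of these, together with the 8 genes of most similar profile. Esm1, Vcam1, Ccl21, Prox1, Pdpn, Flt4 and Fcgr2b and the uncalled platelet genes were named after their values were seen. Promoter sequences are RefSeq's (GRCr8).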

Additional observations from a re-analysis of the deposited data

Results flagged for a closer look

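Each gene was checked in each group of 4 libraries for a highest or lowest library that lay far from the other 3 (Dixon's test at the 95% level). Of 40 such groups 4 had such a library, and chance gives about 1 in 20. In the PMMA bone of rat 1, Cdh5 was at 65.2 CPM while the other PMMA bone libraries were at 105 to 113 CPM. In the same library Tie1 was at 102 CPM, against 168 to 176 CPM in the others. In the BNED of rat 2, Vwf was at 53.4 CPM, against 27.5 to 29.3 CPM in the other BNED libraries. In the PFNU of rat 4, Emcn was at 75.4 CPM, against 88.6 to 89.3 CPM in the other PFNU libraries.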

How the results depend on the processing

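Of 870 values of single endothelial genes under the alternatives other than the added one, 770 kept their direction and their side of the threshold. For PMMA bone against BNED, 4 of the 10 genes and 631 of all genes were called. There DESeq2 called 7 (1546 of all genes), limma-voom 10 (6246) and the compared groups alone 6 (1767). With a block for rat, 2 were called (454 of all genes). With the red cell covariate, 0 were called (0 of all genes, and 3 of the 10 at an unadjusted p under 0.05). Leaving out single libraries gave 0 to 9. Without both the PMMA bone library of rat 1 and the membrane of rat 2, an alternative chosen after seeing the data, 10 were called, with 3561 of all genes. For the interaction, with 0 calls, limma-voom gave 3 (220 of all genes), that added alternative 5 (297), and leaving out single libraries 0 to 3, all lower. For IM against PMMA bone, with 3 calls, limma-voom (2779 of all genes), the compared groups alone (908) and the added alternative (1925) gave 1 higher each, the red cell covariate gave 1 lower (Plvap, -1.12; 1491 of all genes), and leaving out single libraries gave 2 to 3. For PFNU against BNED, with 10 calls, the red cell covariate gave 0 (0 of all genes, in place of 3884), and every fit without a library gave 10. Apart from the calls of Vwf and Esam, the block for rat changed no call of the 10 genes. The cause of these changes was not tested.

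Reversals of direction among the 10 genes fell on uncalled values of IM against PFNU and of IM against PMMA bone, plus Plvap for PFNU against BNED. For IM against PFNU, limma-voom gave -0.13 for Pecam1 and -0.31 for Emcn, the block gave -0.0046 for Emcn, and the red cell covariate gave -0.011 for Pecam1, -0.25 for Tie1, -0.58 for Vwf and -0.20 for Plvap. The added alternative gave -0.099 for Pecam1, -0.28 for Emcn and 0.011 for Esam. Leaving out single libraries gave -0.099 to 0.29 for Pecam1, -0.077 to 0.19 for Tie1, -0.14 to 0.29 for Vwf, -0.28 to 0.21 for Emcn, -0.26 to 0.011 for Esam and -0.14 to 0.055 for Egfl7. For IM against PMMA bone, limma-voom gave -0.31 for Egfl7 and -0.024 for Plvap, the added alternative -0.22 and -0.054, and leaving out single libraries -0.15 to 0.22 and -0.17 to 0.20 for the same genes. The red cell covariate gave -0.45 for Tie1, -0.87 for Vwf, -0.32 for Esam and -0.61 for Egfl7 there, and -0.20 for Plvap for PFNU against BNED. Among list genes it reversed values that were called without it. For IM against PMMA bone, Selp went from 0.88 (edgeR adjusted p = 0.0406) to -0.25. For PFNU against BNED, Stab2 went from -3.46 to 0.19 and Gpr182 from -1.17 to 0.0067.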

Other observations

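Genes of lymphatic and sinusoidal endothelium did not all have the same order of groups. Mean levels in IM, PFNU, PMMA bone and BNED were 91.8, 33.7, 22.0 and 19.4 CPM for Lyve1 and 176, 31.9, 15.96 and 7.71 CPM for Ccl21, a chemokine of lymphatic endothelium. They were 3.05, 2.29, 0.915 and 0.906 CPM for Prox1, the factor of lymphatic identity. These means had the order that most of the 10 identity genes had. In IM, however, Ccl21 ran from 19.3 to 348 CPM and Prox1 from 0.211 to 7.01 CPM, and Prox1 had as few as 2 counts in a BNED library. Other genes of the list had other orders: the means were 110, 47.0, 127 and 72.7 CPM for Pdpn, 14.2, 12.4, 14.6 and 12.8 CPM for Flt4, and 51.7, 33.3, 19.8 and 26.0 CPM for Fcgr2b. Ccl21 was called higher in IM than in PMMA bone (log2 fold change 3.46, edgeR adjusted p = 0.00670) and in PFNU than in BNED (2.05, edgeR adjusted p = 0.0438). Lyve1, a hyaluronan receptor of lymphatic endothelium that some tissue macrophages also carry, averaged 91.8 ± 37.3 CPM in IM and 33.7 ± 12.4 CPM in PFNU (SD, n = 4 each). It was the sole vascular list gene called between these tissues, with a log2 fold change of 1.45 (SE 0.29, edgeR adjusted p = 0.0349). The Lyve1 call was lost in 4 of 8 fits that left out a library, among them that without the membrane of rat 2 (1.17, edgeR adjusted p = 0.0830). It was also lost with limma-voom (adjusted p = 0.124), with the compared groups alone (0.221) and with the red cell covariate (0.136). Of all genes, limma-voom and the compared groups alone called 0 here, and the red cell covariate called 3. Lyve1 was 2.06 higher in IM than in PMMA bone (SE 0.30, edgeR adjusted p = 6.34e-04). Stab2, a scavenger receptor of sinusoidal endothelium, had the opposite order, lowest in IM and highest in BNED. It averaged 0.0928 ± 0.0548 CPM in IM and 7.32 ± 8.29 CPM in PMMA bone (SD, n = 4 each), a log2 fold change of -6.26 (SE 0.96, edgeR adjusted p = 9.20e-04), and -5.14 without the PMMA bone library of rat 1. The IM libraries held only 2 to 8 counts of Stab2 each, so the size of this difference is uncertain. The Stab2 call was lost with limma-voom (adjusted p = 0.102) and with the red cell covariate (0.102). In PFNU it averaged 1.58 ± 1.29 CPM and in BNED 17.3 ± 4.14 CPM (SD, n = 4 each), a log2 fold change of -3.46 (SE 0.79, edgeR adjusted p = 0.00497). Gpr182, a receptor of lymphatic and sinusoidal endothelium, was at 5.73 ± 0.408 CPM in PFNU and 12.9 ± 1.84 CPM in BNED (SD, n = 4 each). Of the 8 genes of this list edgeR called 0 for PMMA bone against BNED, with 1 at an unadjusted p under 0.05. Without the PMMA bone library of rat 1 it called 2 lower, with 2578 of all genes called.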
